A study of Mus musculus with 4 samples.

Results

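The enzymes that add methyl groups to lysines of histones (writers) and those that take them off (erasers) were followed in lung metastases of 4T1, a mouse triple-negative breast cancer (TNBC) line. Of the 56748 rows of the gene count table, 54 protein-coding rows had a symbol of the families Kdm1 to Kdm8, Kmt2, Kmt5, Setd, Nsd, Suv39h, Ehmt, Ezh or Smyd, or were Eed, Suz12, Dot1l or Ash1l. Of these, 36 were counted as writers and 18, the Kdm genes, as erasers. The writers include the non-catalytic subunits Eed and Suz12, and Kmt2e and Setd5, which have little or no known methyltransferase activity. They also include Setd3, Setd4 and Setd6, whose substrates are mainly not histones. Bulk RNA sequencing compared 2 libraries of saline-treated mice with 2 libraries of mice given cmLumiOpto/PARPi. All mice were female BALB/cJ animals that received luciferase-marked 4T1 cells (4T1-FLuc) through the tail vein at 7 weeks of age, and treatment lasted 3 weeks. The treated group was given an exosome-associated AAV carrying a CD276 antibody and the cmLumiOpto gene, which lets a light-gated channel depolarize cancer mitochondria and is driven by a cfos promoter. This group also received ViviRen, the luciferase substrate that supplies the light, at 2 mg/kg, and olaparib, an inhibitor of PARP, at 50 mg/kg. The saline group received none of these, and no single-agent arm was analysed here, so the parts of the combination cannot be told apart. The labels name PBS for the control and tumour cells harvested from lungs, whereas the study's methods name saline and lung tissue with metastasis. A tail vein model seeds the lung directly and holds no primary tumour.

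Methylation of histone lysines marks chromatin without changing the DNA. Methylated H3K4, H3K36 and H3K79 accompany transcribed genes, whereas methylated H3K9, H3K27 and H4K20 accompany silent or compacted chromatin. Many writers and erasers act on 1 or a few of these sites. The PRC2 core consists of the H3K27 methyltransferases Ezh2 or Ezh1 with Eed, which reads the mark, and Suz12, which holds the complex together, and the H3K27 erasers Kdm6a and Kdm6b oppose it. Mutations of several of these enzymes are known in cancers, breast cancer included.

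Promoters of the PRC2 core and of the H3K4 eraser Kdm5b are shown because these genes carry the contrast between members with lower, overlapping and higher values after treatment. The 250 bases before the RefSeq start site are printed 5′ to 3′ on the gene's strand, with the CCAAT box and the GGGCGG (GC) box in capitals on either strand, so that ATTGG and CCGCCC are also marked. The positions, in GRCm38.p6, are chr6:47595031-47595280, minus strand for Ezh2, chr11:101226464-101226713, minus strand for Ezh1, chr7:89980977-89981226, minus strand for Eed, chr11:79992856-79993105, plus strand for Suz12 and chr1:134559928-134560177, plus strand for Kdm5b.
Ezh2: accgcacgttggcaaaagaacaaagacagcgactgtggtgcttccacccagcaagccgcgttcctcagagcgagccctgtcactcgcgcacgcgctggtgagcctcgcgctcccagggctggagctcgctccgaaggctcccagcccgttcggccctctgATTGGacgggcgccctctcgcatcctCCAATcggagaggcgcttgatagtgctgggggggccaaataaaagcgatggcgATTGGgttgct
Ezh1: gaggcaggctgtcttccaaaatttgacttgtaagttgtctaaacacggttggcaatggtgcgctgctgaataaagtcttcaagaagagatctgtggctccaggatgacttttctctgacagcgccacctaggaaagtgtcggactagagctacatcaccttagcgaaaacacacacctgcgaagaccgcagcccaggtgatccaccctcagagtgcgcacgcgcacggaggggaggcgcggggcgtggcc
Eed: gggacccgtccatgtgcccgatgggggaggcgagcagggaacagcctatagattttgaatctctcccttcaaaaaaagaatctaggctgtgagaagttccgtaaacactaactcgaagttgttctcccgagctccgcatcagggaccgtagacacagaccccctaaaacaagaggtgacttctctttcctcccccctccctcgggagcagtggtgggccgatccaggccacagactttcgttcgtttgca
Suz12: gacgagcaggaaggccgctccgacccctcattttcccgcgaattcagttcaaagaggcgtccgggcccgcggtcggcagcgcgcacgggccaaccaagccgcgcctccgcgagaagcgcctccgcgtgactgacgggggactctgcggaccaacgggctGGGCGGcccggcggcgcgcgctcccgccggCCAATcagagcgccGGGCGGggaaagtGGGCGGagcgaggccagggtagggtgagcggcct
Kdm5b: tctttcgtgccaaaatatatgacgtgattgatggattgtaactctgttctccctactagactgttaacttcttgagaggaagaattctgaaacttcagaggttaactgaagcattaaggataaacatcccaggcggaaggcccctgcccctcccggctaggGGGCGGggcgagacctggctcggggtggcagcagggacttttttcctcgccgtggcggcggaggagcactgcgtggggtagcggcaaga
The Ezh2 window held 3 CCAAT boxes and 0 GC boxes, and that of Suz12 held 1 CCAAT box and 3 GC boxes. The windows of Ezh1 and Eed held neither box, and Kdm5b had 1 GC box. CpG dinucleotides numbered 23, 14, 12, 37 and 13 in the same order as printed. The set of RefSeq promoters used here held a window for 41 of the 54 members, and the first listed start of each gene was taken. A GC box occurred in 58.5% of these 41 windows, in 58.0% of the 11022 windows of genes tested here and in 32.9% of all 27025 windows. The CCAAT box occurred in 43.9%, 36.2% and 34.5%, respectively. The median CpG number was 18 in the members, 15 in the tested genes and 6 in all windows, and the Setd5 and Kdm4c windows held 0. Kdm4c had 2 listed starts, so its other window was not counted. Such matches describe letters in a window and not binding.

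The gene counts summed to between 15263375 and 16755228 per library, and expression is given as CPM, a gene's counts relative to the TMM-normalized library total. On this scale a detection floor of 3 counts was 0.172 to 0.204 CPM. The floor covers counting error only. With 2 libraries against 2, an exact two-sided permutation test of a single gene cannot reach p = 0.05. Counts of 51 members were high enough for testing. The other 3 were Smyd1, a muscle methyltransferase with 12 and 4 counts with saline and 10 and 2 with treatment, Kdm4d with 3, 4, 6 and 3 counts, and Kdm5d, a Y-linked gene at 0 counts in all 4 libraries of these female mice. A count of 0 allows up to the 3 counts of the floor.

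Writers and erasers were mostly lower after cmLumiOpto/PARPi, but no member passed the threshold. The smallest adjusted p among the members was 0.138 by the quasi-likelihood test of edgeR (Benjamini-Hochberg adjusted). Over all 15167 tested genes 0% passed, with the same smallest value, although 3221 genes had an unadjusted p under 0.05. The log2 fold change (treated over saline) was negative in 43 of the 51 members and positive in 8, with a median of -0.29 against 0.02 for all tested genes. An unadjusted p under 0.05 with lower expression was found in 18 members (35.3%), against 12.0% of all tested genes. In the other direction it was found in 1 member (1.96%), against 9.21%. Both treated libraries lay below both saline libraries in 32 members (62.7%; all tested genes 27.8%). They lay above in 2 members, Eed and Kmt5c (3.92%; all tested genes 27.4%), and the groups overlapped in 17. By DESeq2 8 members passed an adjusted p of 0.05, all lower (15.7%), against 4.52% of all tested genes called lower. They were Kmt2e, Kdm6b, Kdm5b, Ash1l, Setd5, Nsd2, Kdm5a and Setd2. By edgeR's exact test 5 members passed, against 3.25% of all genes called lower, and by its likelihood ratio test 6, against 3.44%. With the replicate number as a block 12 passed, all lower, against 7.05% of all genes called lower. Without a filter on low counts 12 of 53 passed, all lower, against 4.19% of 25435 genes called lower. Without saline replicate 2 the number of members at an unadjusted p under 0.05 went from 19 of 51 (37.3%) to 12 of 52 (23.1%), and over all genes the share went from 21.2% to 10.7%. Levels per length differed widely between members. The highest mean over the 4 libraries was 37.4 CPM per kb for Ehmt2, followed by Kdm1a, Setd3 (24.7) and Suz12 (24.6), and the lowest of a tested member was 0.247 for Setd4.

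**Figure D1:**
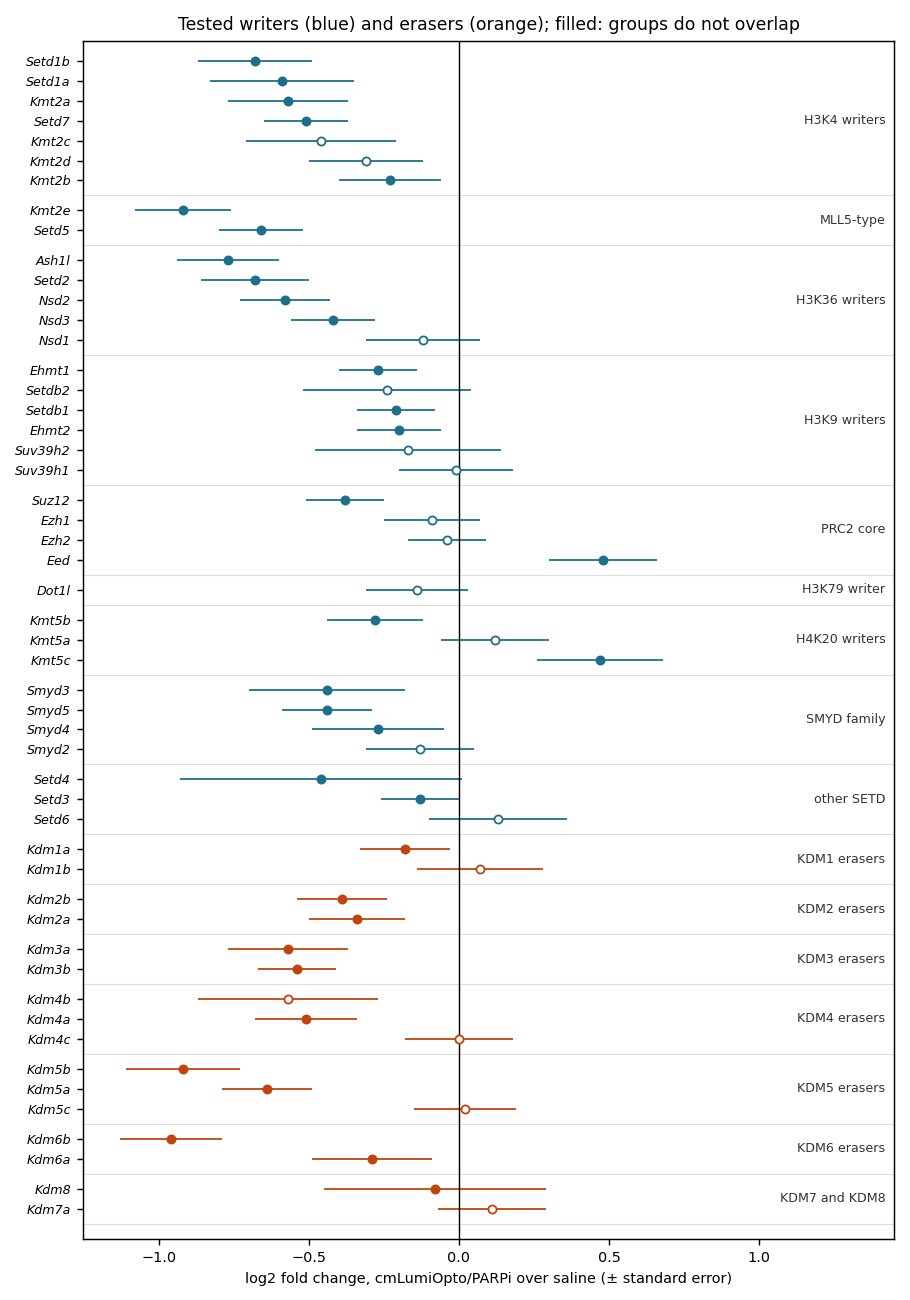
Log2 fold change (x axis, cmLumiOpto/PARPi over saline) of the 51 tested members, grouped by role, with bars for the standard error. Writers are blue and erasers orange, and filled points mark the 34 members whose groups did not overlap. Most points lie left of 0, from -0.96 for Kdm6b, and Eed and Kmt5c lie farthest right at 0.48 and 0.47.

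All 7 H3K4 writers had negative fold changes, with a median of -0.51. In 5 of them both treated libraries lay below both saline libraries, against 27.8% of all tested genes. Setd1b, a catalytic subunit of the SET1 complex that trimethylates H3K4 at active promoters (mm39, chr5:123280256-123306692), had 50.6 and 46.1 CPM in the saline libraries and 34.8 and 25.8 CPM after treatment. Its log2 fold change was -0.68 (SE 0.19, adjusted p = 0.160 by edgeR's quasi-likelihood test). Its paralog Setd1a had a log2 fold change of -0.59 (SE 0.24). Kmt2a (MLL1), which maintains Hox gene expression, had 93.3 and 110 CPM with saline and 79.3 and 57.0 CPM with treatment, a log2 fold change of -0.57 (SE 0.20). Setd7, a monomethyltransferase of H3K4 and of several other proteins, had 107 and 97.7 CPM against 76.8 and 67.3 CPM, a log2 fold change of -0.51 (SE 0.14). The treated libraries thus lay below both saline libraries for these 4 genes. The groups overlapped for the enhancer H3K4 monomethyltransferases. Kmt2d had 74.9 and 65.6 CPM against 65.8 and 47.7 CPM (log2 fold change -0.31, SE 0.19), and Kmt2c had -0.46 (SE 0.25). The smallest difference was that of Kmt2b at -0.23 (SE 0.17). After correction for gene length and mean expression together the median of the 7 genes was -0.11, and Kmt2d turned to 0.16 and Kmt2b to 0.03.

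Kmt2e and Setd5 are SET-domain proteins with little or no known methyltransferase activity that act on chromatin through their partners. Kmt2e (MLL5; mm39, chr5:23639439-23709233) had 166 and 205 CPM in the saline libraries and 101 and 95.3 CPM after cmLumiOpto/PARPi. This was the largest difference among the writers, with a log2 fold change of -0.92 (SE 0.16, adjusted p = 0.138 by edgeR's quasi-likelihood test, 0.000449 by DESeq2). Setd5 (mm39, chr6:113054326-113130396) had 118 and 141 CPM against 80.9 and 82.7 CPM, a log2 fold change of -0.66 (SE 0.14). The treated libraries lay close together and well below the saline libraries for both genes. After correction for length and mean expression Kmt2e was at -0.53 and Setd5 at -0.16. Kmt2e overlaps Srpk2 on the opposite strand, which had 1120 and 1327 counts with saline and 1007 and 1068 with treatment. The strand setting of the counting is not given in the sources used here, so reads of overlapping genes may not be told apart.

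Among the 5 writers of H3K36, a mark laid down over gene bodies, 4 had both treated libraries below both saline libraries. This held for 27.8% of all tested genes and for 53.5% of those from 7273 bases in length. The H3K36 writers were 10754 to 17483 bases long, and their median log2 fold change was -0.58. Ash1l, a dimethyltransferase that opposes Polycomb silencing (mm39, chr3:88857929-88986682), had 126 and 162 CPM against 82.6 and 86.3 CPM. Its log2 fold change was -0.77 (SE 0.17, adjusted p = 0.138 by edgeR's quasi-likelihood test, 0.00982 by DESeq2). Setd2, the enzyme of H3K36 trimethylation that travels with elongating RNA polymerase II (mm39, chr9:110361665-110447701), had 115 and 156 CPM against 82.2 and 87.5 CPM, a log2 fold change of -0.68 (SE 0.18). Nsd2, a dimethyltransferase gene that is altered in myeloma (mm39, chr5:33978069-34055319), had 170 and 206 CPM against 125 CPM in both treated libraries, a log2 fold change of -0.58 (SE 0.15). In all 3 genes the saline libraries differed more from each other than the treated libraries did. Nsd3 was lower in both treated libraries at -0.42 (SE 0.14), while Nsd1 had overlapping groups and -0.12 (SE 0.19). After correction for gene length and mean expression the median of the 5 genes was -0.06. Ash1l was then at -0.31, Setd2 at -0.30 and Nsd2 at -0.06, while Nsd3 turned to 0.07 and Nsd1 to 0.28. Ash1l and Nsd2 overlap the protein-coding genes Dap3 and Nelfa on the opposite strand.

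The 6 H3K9 writers had log2 fold changes between -0.27 and -0.01. Among them 0 had an unadjusted p under 0.05, against 12.0% lower and 9.21% higher of all tested genes. In 3 of the 6 both treated libraries lay below both saline libraries, against 27.8% of all tested genes. Ehmt2 (G9a), which dimethylates H3K9 in euchromatin together with Ehmt1, had 226 and 215 CPM against 180 and 202 CPM (log2 fold change -0.20, SE 0.14). Setdb1, an H3K9 trimethylating enzyme that silences retroelements, had 69.4 and 73.7 CPM against 62.5 and 60.9 CPM (log2 fold change -0.21, SE 0.13). Suv39h1, which trimethylates H3K9 in pericentromeric heterochromatin, had 32.9 and 32.6 CPM with saline and 28.2 and 36.7 CPM with treatment, on both sides of the saline values (log2 fold change -0.01, SE 0.19). Ehmt1 had -0.27 (SE 0.13) with groups that did not overlap, while Setdb2 at -0.24 and Suv39h2 at -0.17 had overlapping groups. After correction for gene length and mean expression the median of the 6 genes was 0.00, and the signs of Ehmt2, Setdb1 and Suv39h1 turned. Setdb1 overlaps Cers2 on the opposite strand, which had 4477 to 4988 counts per library against 1012 to 1107 for Setdb1.

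The 4 genes of the PRC2 core did not move together. Eed (mm39, chr7:89603862-89630191) was higher after treatment, with 30.3 and 26.9 CPM with saline against 43.9 and 36.2 CPM with treatment. Its log2 fold change was 0.48 (SE 0.18, adjusted p = 0.205 by edgeR's quasi-likelihood test), the only member with higher expression at an unadjusted p under 0.05. Suz12 (mm39, chr11:79883932-79924949) had 139 and 136 CPM against 99.8 and 112 CPM, a log2 fold change of -0.38 (SE 0.13, adjusted p = 0.196 by the same test). Eed and Suz12 thus lay on opposite sides of their saline values. On a scale of CPM per kb, Eed was 0.281 and 0.256 times as high as Suz12 with saline and 0.568 and 0.418 times as high with treatment. The catalytic subunits had overlapping groups. Ezh2 had 59.6 and 57.0 CPM against 55.4 and 57.8 CPM (log2 fold change -0.04, SE 0.13), and Ezh1 had 42.3 and 36.7 CPM against 36.4 and 38.0 CPM (log2 fold change -0.09, SE 0.16). Ezh2 was 1.57 and 1.73 times as high as Ezh1 per kb with saline and 1.70 times as high in both treated libraries. In the promoters printed above, those of Ezh2 and Suz12 held a CCAAT box and those of Ezh1 and Eed did not.

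**Figure D2:**
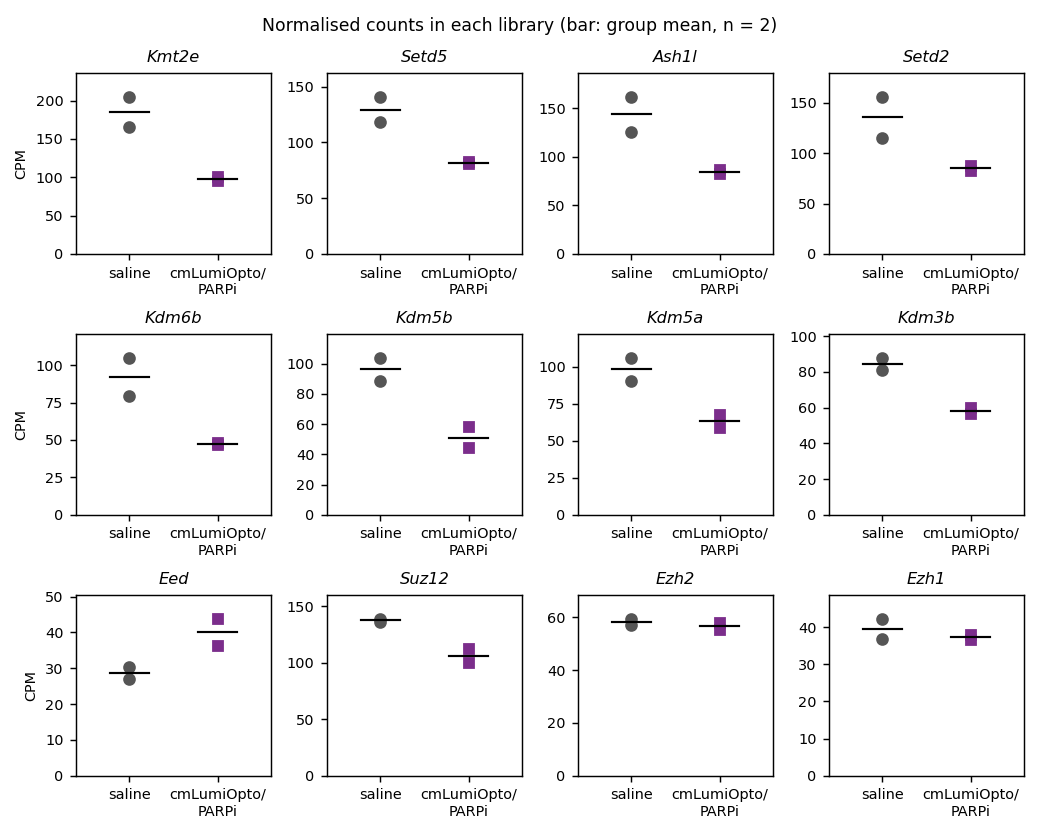
CPM (y axis, from 0) of 12 members in each library, with saline libraries as grey circles, cmLumiOpto/PARPi libraries as purple squares and a bar for the group mean. In the upper 8 panels both treated libraries lie below both saline libraries, for Eed they lie above at 43.9 and 36.2 CPM, and for Ezh2 and Ezh1 the groups overlap.

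Dot1l, the only known H3K79 methyltransferase, had 33.9 and 29.2 CPM with saline and 30.5 and 26.8 CPM with treatment, with overlapping groups and a log2 fold change of -0.14 (SE 0.17). The 3 H4K20 writers went in different directions. Kmt5c, which trimethylates H4K20 in heterochromatin, had 13.5 and 13.2 CPM against 20.5 and 16.7 CPM, with no overlap and a log2 fold change of 0.47 (SE 0.21). Kmt5b, its dimethylating paralog, was lower in both treated libraries at -0.28 (SE 0.16), turning to 0.16 after correction for length and mean expression. Kmt5a, the monomethyltransferase, had overlapping groups at 0.12 (SE 0.18). All 4 tested genes of the SMYD family had negative fold changes, from -0.44 to -0.13. Smyd5 had 45.0 and 44.2 CPM against 31.8 and 34.2 CPM, a log2 fold change of -0.44 (SE 0.15). It was the only one of them with an unadjusted p under 0.05, against 12.0% of all tested genes in the lower direction. Smyd3 at -0.44 (SE 0.26) and Smyd4 at -0.27 (SE 0.22) were lower in both treated libraries, and Smyd2 at -0.13 had overlapping groups. Of the SETD enzymes with mainly non-histone substrates, Setd3, the actin histidine methyltransferase, had -0.13 (SE 0.13), Setd4 had -0.46 (SE 0.47) at 1.08 to 1.57 CPM, and Setd6 had 0.13 (SE 0.23).

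Of the 16 tested erasers, 12 had a negative fold change, 11 had both treated libraries below both saline libraries (27.8% of all tested genes) and 0 had both above (27.4%). The H3K27 erasers differed from each other in size. Kdm6b (JMJD3; mm39, chr11:69289334-69304501), an inducible H3K27 demethylase of inflammatory and differentiation programmes, had 105 and 79.5 CPM in the saline libraries and 47.9 and 46.8 CPM after treatment. The treated libraries were nearly equal and far below both saline values. Its log2 fold change of -0.96 (SE 0.17, adjusted p = 0.138 by edgeR's quasi-likelihood test, 0.00132 by DESeq2) was the largest of any member. Kdm6a (UTX), the X-linked paralog that works with Kmt2c and Kmt2d at enhancers, had 35.1 and 48.0 CPM against 34.7 and 33.3 CPM (log2 fold change -0.29, SE 0.20), so that its treated values lay just below the lower saline value. The Kdm6a value was -0.06 without saline replicate 2 and -0.51 without saline replicate 1. Kdm6b was 3.60 and 2.00 times as high as Kdm6a per kb with saline and 1.66 and 1.69 times as high with treatment. After correction for length and mean expression the log2 fold change was -0.74 for Kdm6b and -0.08 for Kdm6a.

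Among the H3K4 trimethyl erasers of the KDM5 family, Kdm5b (JARID1B; mm39, chr1:134487909-134563023), which is known for its high expression in breast cancers, had 104 and 88.6 CPM against 44.0 and 58.1 CPM. Its log2 fold change was -0.92 (SE 0.19, adjusted p = 0.138 by edgeR's quasi-likelihood test, 0.00453 by DESeq2). Kdm5a (mm39, chr6:120341085-120421535), tied to drug-tolerant tumour cells, had 90.1 and 106 CPM against 58.3 and 67.6 CPM, a log2 fold change of -0.64 (SE 0.15), and overlaps Ccdc77 (65 to 136 counts) on the opposite strand. Kdm5c, the X-linked member, had overlapping groups and a log2 fold change of 0.02 (SE 0.17). The H3K9 erasers of the KDM3 family, which act on the mono- and dimethylated state, were both lower. Kdm3a, a target of hypoxia-inducible factor, had 102 and 73.9 CPM against 53.8 and 64.4 CPM (log2 fold change -0.57, SE 0.20). Kdm3b had 81.1 and 88.0 CPM against 60.0 and 56.4 CPM (log2 fold change -0.54, SE 0.13). After correction for length and mean expression the log2 fold changes were -0.47 for Kdm5b, -0.22 for Kdm5a and 0.27 for Kdm5c. Those of Kdm3a and Kdm3b were then -0.30 and -0.13.

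The KDM4 family removes trimethyl marks from H3K9 and H3K36. Kdm4a had 87.9 and 97.2 CPM against 56.0 and 73.8 CPM (log2 fold change -0.51, SE 0.17). Kdm4b had a log2 fold change of -0.57 (SE 0.30) with overlapping groups, since saline replicate 2 at 35.2 CPM lay between the treated libraries, and Kdm4c had 0.00 (SE 0.18). Of the H3K36 erasers, Kdm2b, which brings a Polycomb complex to CpG islands, had 46.5 and 50.4 CPM against 35.4 and 38.4 CPM (log2 fold change -0.39, SE 0.15). Kdm2a had -0.34 (SE 0.16) with groups that did not overlap. After correction for length and mean expression Kdm2a turned to 0.14, while Kdm2b was at -0.11 and Kdm4a at -0.33. Kdm2b overlaps Rnf34, and Kdm1a overlaps Luzp1, on the opposite strand. Kdm1a (LSD1), the H3K4 eraser of the CoREST complex, had 136 and 139 CPM against 108 and 134 CPM, a log2 fold change of -0.18 (SE 0.15). Its sign turned after correction for length and mean expression. The remaining erasers had log2 fold changes of 0.07 (Kdm1b), 0.11 (Kdm7a) and -0.08 (Kdm8). Kdm8 was at 2.88 to 3.13 CPM, and Kdm1b overlaps the more abundant Dek on the opposite strand.

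Writers and erasers were then compared with each other. The median log2 fold change was -0.27 over the 35 tested writers and -0.37 over the 16 tested erasers, a difference of 0.09. An unadjusted p under 0.05 with lower expression was found in 11 of 35 writers and 7 of 16 erasers, against 12.0% of all tested genes. The median of each gene's log2 CPM, taken relative to that gene's mean over the 4 libraries, was 0.14 and 0.17 for writers with saline and -0.13 and -0.14 with treatment. For erasers it was 0.18 and 0.09 with saline and -0.24 and -0.10 with treatment. Both classes were thus lower in both treated libraries, while the median over all tested genes stayed between 0.00 and 0.01. The summed CPM of the writers was 2.07 and 2.48 times that of the erasers with saline and 2.45 and 2.21 times with treatment, so the groups overlapped in this ratio. Without saline replicate 1 the order of the medians turned, to -0.35 for writers and -0.28 for erasers. With upper-quartile normalization the medians were -0.17 and -0.26, against 0.13 for all tested genes. A difference between the classes was therefore not resolved by these libraries.

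**Figure D3:**
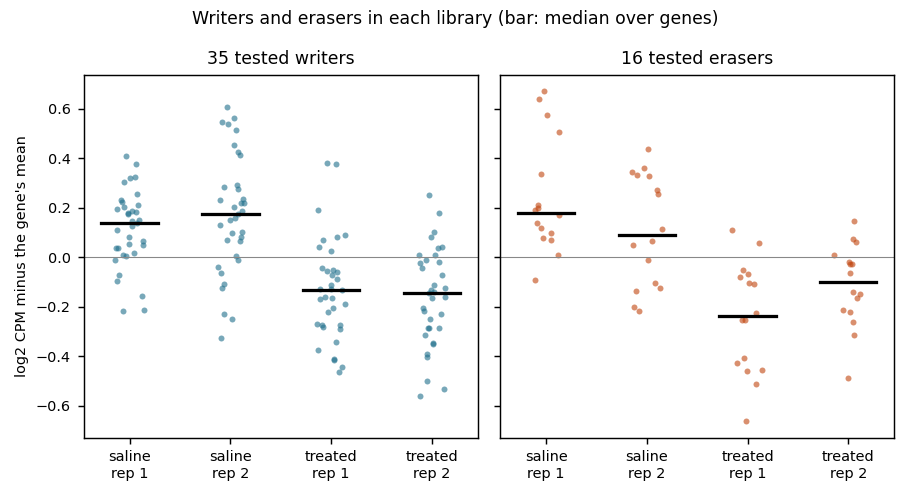
Log2 CPM of each gene minus its mean over the 4 libraries (y axis) for 35 writers (left, blue) and 16 erasers (right, orange) in each library, with a bar for the median over genes. The medians lie at 0.09 to 0.18 in the saline libraries and at -0.24 to -0.10 in the treated libraries for both classes.

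Member genes are long, and length moved with the fold change. Across the 15167 tested genes the log2 fold change was lower for longer genes (Spearman's rho -0.37, across genes of the same 4 libraries), and across the 51 members rho was -0.56 (writers -0.62, erasers -0.34). Of the members, 45 were longer than the median tested gene (4127 bases) and 26 fell in the longest of 5 equal groups of genes, from 7273 bases. In that group the median log2 fold change was -0.45 for the members and -0.27 for all genes. Both treated libraries lay below both saline libraries in 20 of these 26 members (76.9%) and in 53.5% of all genes in the group. An unadjusted p under 0.05 with lower expression was found in 14 of them (53.8%) and in 31.4% of the genes. After a loess correction for length and mean expression the median was -0.07 for writers and -0.12 for erasers, against -0.02 for all tested genes, with 30 members lower and 21 higher. The sign turned from negative to positive in 14 members and from positive to negative in 1, Setd6. Ehmt2 (5489 bases, 180 to 226 CPM) went from -0.20 to 0.04, and Setd4 (5379 bases, 1.08 to 1.57 CPM) from -0.46 to -0.82. Length and mean expression were fitted together, so their shares in a turned sign were not separated. The part of length, or of RNA quality, in the lower member values was not tested further. Eed and Kmt5c, whose treated libraries both lay above both saline libraries, were 3828 and 4001 bases long. Their log2 fold changes after the correction were 0.46 and 0.37.

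**Figure D4:**
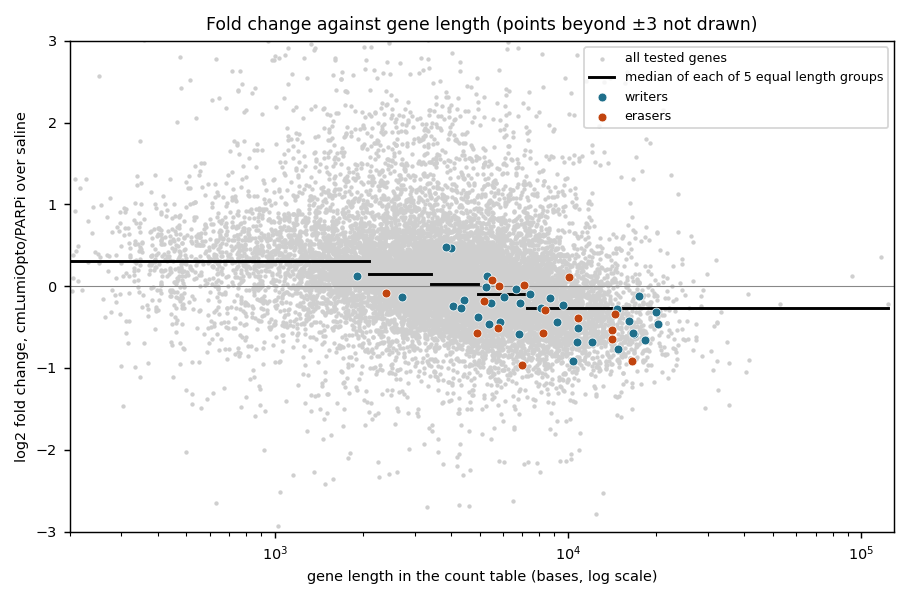
Log2 fold change (y axis, cmLumiOpto/PARPi over saline) against gene length (x axis, bases, log scale), with all tested genes in grey, writers in blue, erasers in orange and black bars for the median of each of 5 equal groups of genes by length. The medians go from 0.31 in the shortest group to -0.27 in the longest, where 26 of the 51 members lie.

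RNA of cell type markers moved with the groups for some cell types. Markers of 4T1 mammary epithelium (Krt8, Krt18, Epcam and others, 8 of 9 tested) summed to 2925 and 3327 CPM with saline and 2553 and 3717 CPM with treatment, with overlapping groups. All 5 fibroblast markers were lower in both treated libraries (5060 and 3499 CPM against 1630 and 1838 CPM). All 6 airway markers were higher (1154 and 81.6 CPM, far apart within saline, against 5693 and 3000 CPM), as were 5 of 6 alveolar type 2 markers, while the other was lower (summed 1588 and 425 CPM against 7800 and 2780 CPM). Proliferation markers summed to 1508 and 1514 CPM against 1160 and 1438 CPM, with 3 of 9 lower and 2 higher without overlap. Over all tested genes 27.8% were lower and 27.4% higher without overlap. All tested alveolar type 1 (5), T cell (6), B cell (4), neutrophil (5) and cardiac muscle (4) markers had positive fold changes. Of these, 4, 1, 3, 1 and 3 were higher without overlap, against 27.4% of all tested genes. The summed CPM of the T cell, neutrophil and cardiac muscle markers overlapped between the groups. Positive fold changes were also found in 4 of 5 endothelial, 4 of 6 macrophage and 2 of 3 tested NK cell markers. In each of these lists 1 marker was higher without overlap, and the macrophage marker Mrc1 was lower without overlap at -1.06 (SE 0.30). The sums overlapped between the groups. They were 429 and 347 CPM with saline against 593 and 343 CPM for endothelium. Macrophage markers summed to 1182 and 1078 against 1104 and 908 CPM, and NK cell markers to 14.2 and 13.1 against 28.1 and 5.66 CPM. No marker of these lists was at 0 in all libraries. The part of these cell types in the member values was not tested, and in bulk RNA fewer cells of a type and less RNA per cell cannot be told apart.

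Partners, readers and related enzymes outside the families above showed a mixed picture. Of 62 such genes 59 were tested, 33 with negative and 26 with positive fold changes, and an unadjusted p under 0.05 was found in 11 lower and 2 higher genes (12.0% and 9.21% of all tested genes). Of all 15167 tested genes 7286 were lower and 7881 higher. In the COMPASS complexes, which hold the H3K4 writers, 6 of 12 tested partners were lower and 6 higher. Hcfc1, a scaffold of the SET1 and MLL complexes, had 214 and 247 CPM against 121 and 119 CPM, a log2 fold change of -0.94 (SE 0.14, adjusted p = 0.138 by edgeR's quasi-likelihood test). The coactivator Ncoa6 had a log2 fold change of -0.70 (SE 0.16). Dpy30, a short core subunit, went the other way with 32.1 and 34.1 CPM against 49.0 and 47.2 CPM (log2 fold change 0.54, SE 0.14). All 4 tested H3K9 writer partners were lower in both treated libraries (27.8% of all tested genes), among them the G9a partner Wiz at -0.91 (SE 0.20) and the Setdb1 cofactor Atf7ip at -0.78 (SE 0.14). These 4 genes had a median length of 11622 bases. Their median log2 fold change went from -0.60 to -0.20 after correction for length and mean expression. Of 8 PRC2 accessory subunits 5 were lower, led by Jarid2 at -0.57 (SE 0.19). Of 8 CoREST partners of Kdm1a 5 were lower, with Rcor3 at -0.80 (SE 0.20) and Zmym2 at -0.39 (SE 0.15). Among 15 tested readers of methylated lysine, the NURF subunit Bptf had -0.66 (SE 0.14) and the heterochromatin protein Cbx1 had 0.50 (SE 0.16). The related demethylases Phf2 and Phf8 had -0.59 (SE 0.13) and -0.49 (SE 0.18). By edgeR's quasi-likelihood test 0 of the 59 genes passed the adjusted threshold. DESeq2 called 7 of them, all lower, namely Hcfc1, Ncoa6, Wiz, Atf7ip, Rcor3, Bptf and Phf2, against 4.52% of all tested genes called lower. The exact and likelihood ratio tests each called 5, all lower, against 3.25% and 3.44% of all tested genes called lower.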

How the data were processed

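Reads of 4 libraries, 2 from saline-treated and 2 from cmLumiOpto/PARPi-treated mice, were mapped by the authors with HISAT2, and a table of raw read counts per gene was deposited, beside gene positions, lengths and biotypes. The counting program and its strand setting are not given in the sources used here. The study's methods name GRCm38 and the submitters' processing notes mm39. Only 2.76% of the 52073 genes shared with GENCODE M21, a GRCm38 annotation, had equal positions in both, so positions of genes are those of the table, taken as mm39. Promoter sequences are from RefSeq (GRCm38.p6) and were not converted. The RNA kit also differs between the labels and the methods.

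Counts were tested with edgeR 4.0.16 in R 4.3.3 (TMM, filterByExpr at its minimum of 10 counts, glmQLFit and glmQLFTest, Benjamini-Hochberg over all 15167 tested genes, threshold 0.05). SE is the size of the log2 fold change divided by the square root of F. Log2 CPM used a prior count of 2. Alternatives were the likelihood ratio and exact tests of edgeR, DESeq2 1.42.0, other normalizations, no filter, the replicate block and leaving out each library. A further alternative was a loess correction (span 0.5) of the fold change for log2 gene length and mean log2 CPM together. The methods were tested on simulated counts with changes larger than that of any member, so the recovery of smaller changes was not tested. Within a group the libraries differed beyond counting error (chi-square per degree of freedom 24.1 for saline and 41.1 for treated). Nothing states that each library is 1 mouse, so p-values measure the spread between these libraries.

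The members and gene lists were chosen with earlier results of these data known. Values in each library are given for 16 members fixed by name and, in each role, for up to 3 members in each direction with the smallest unadjusted p under 0.05 and groups that do not overlap, which made 27 members. Of each partner list up to 2 genes in each direction were named by the same rule. Kmt5c was added to these after its values had been seen. Other members are named because all are accounted for.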

Additional observations from a re-analysis of the deposited data

How the results depend on the processing

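At an unadjusted p under 0.05 upper-quartile normalization left 11 members lower of 13, against 18 of 19. Over all 15167 tested genes the number in both directions was 3275 with upper-quartile normalization, against 3221. No member passed the adjusted threshold with DESeq2 size factors, upper-quartile normalization, the quasi-likelihood fit without the legacy option or any library left out. The number that passed was 12 without the filter on low counts (2000 of 25435 genes), 5 by the exact test (815 of 15167 genes), 6 by the likelihood ratio test (865) and 8 by DESeq2 (1011), all lower after treatment, and the cause was not tested. With the replicate block 12 members and 1822 genes passed. The number marks no shared animal, and same-numbered libraries deviated together over all tested genes (Spearman's rho 0.298) but not over the 51 members (0.00697). The median of writers and erasers was -0.07 and -0.12 after the length and expression correction and -0.17 and -0.26 with upper-quartile normalization, which moved the median of all genes from 0.02 to 0.13.

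With 1 library left out, the writer median ranged from -0.35 to -0.30, the eraser median from -0.42 to -0.28, and the writer median minus the eraser median from -0.08, without saline replicate 1, to 0.12. Members at an unadjusted p under 0.05 numbered 12 to 17. A group left with 1 library was assumed to vary like the other. Of the 27 named members 19 kept their sign in every alternative run. After the length and expression correction the log2 fold change was 0.05 for Dot1l, 0.04 for Ehmt2, 0.09 for Ezh1, 0.15 for Ezh2, 0.01 for Kdm1a, 0.16 for Kmt2d, 0.00 for Setdb1 and 0.05 for Suv39h1. With upper-quartile normalization it was 0.02 for Ezh1, 0.06 for Ezh2 and 0.09 for Suv39h1. With 1 library left out it ranged from -0.20 to 0.01 for Ezh1, highest without saline replicate 1, and from -0.24 to 0.16 for Suv39h1, highest without treated replicate 1. Depth limits Setd4 and Kdm8 most among the tested members.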

Other observations

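Kdm4d, an H3K9 demethylase gene expressed mainly in testis, was close to the detection floor with 3, 4, 6 and 3 counts. The neighbouring row Kdm4dl (mm39, chr9:14362132-14363318), listed as an unprocessed pseudogene, had 15.9 and 16.3 CPM in the saline libraries and 27.1 and 27.2 CPM in the treated libraries, a log2 fold change of 0.75 (SE 0.17, adjusted p = 0.138 by edgeR's quasi-likelihood test). It was singled out after its values had been seen. Both rows are uncertain, since the handling of reads shared by near-identical KDM4 copies is not given in the sources used here.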
